A study of Saccharomyces cerevisiae with 6 samples.

Results

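The genes described here encode the proteasome of budding yeast: 32 subunits of the particle, the transcription factor Rpn4, and the assembly factors Ump1, Poc4 and Nas6. They were found by gene symbol in the platform's annotation, and each of the 36 symbols named 1 probe, out of 5561 named genes on the arrays. PRE9 had no value on 1 array, so 35 of the 36 genes had a value on all 6 arrays and were fitted, out of 5212 such genes. The rule for choosing them uses gene symbols and no measured value, though the list was drawn up with earlier results of these data known.

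The mutant cells carried a tor1 deletion in the W303a background and the plasmid p3HA-TOR1 [I1954V + W2176R], a tagged TOR1 allele with 2 changed residues. The WT cells carried the same tor1 deletion in the same background and the plasmid p3HA-TOR1, so that a plasmid copy was the TOR1 allele of both groups. Each strain was treated with 3, 6 or 9 mM caffeine. Polyadenylated RNA of the treated cells, labelled with Cy5, was hybridised against RNA of the same strain without caffeine, labelled with Cy3, with 1 array for each strain and dose. The sources used here give no growth phase or length of treatment.

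Each value is a log2 ratio, taken here as caffeine over no caffeine. The deposited files do not state this sense. It is the usual one for these dyes and is called likely only, and every sign below would turn if the ratio ran the other way. The dyes were never exchanged, so that a dye bias of a gene and its response to caffeine cannot be told apart within a strain. Since every ratio was set against the same strain, it says nothing about whether untreated mutant and WT cells differ, and it gives no level of TOR1 or of a mating-type marker against which a label could be checked. Signal over background and depth of the spots were not examined, and 6 arrays limit the precision.

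The proteasome degrades proteins tagged with ubiquitin. Its core particle is a barrel of stacked alpha and beta rings with the protease sites inside the beta rings, and its regulatory particle has a base, with a ring of ATPases that unfold substrates, and a lid that removes ubiquitin. In budding yeast Rpn4 binds the promoters of proteasome genes and activates them together, and Rpn4 is itself a short-lived substrate of the proteasome. Tor1 is a kinase of TOR complex 1, which couples growth to nutrients, and caffeine inhibits this complex. The comparison asks how the response of these genes to caffeine differs between cells with the changed and the unchanged TOR1.

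The ratios of all genes moved with the probe number on the array, and this touches many values of the proteasome genes. Probe numbers were put into 16 classes, by the run of 24 numbers within each block of 96 and by the remainder after division by 4. What the classes stand for on the slide is unknown here. On the 3, 6 and 9 mM arrays, the classes held 48.0%, 53.7% and 38.0% of the variance over genes in the mutant, against 8.78%, 13% and 11.8% in WT. On the mutant 6 mM array the class medians ran from -1.55 to 0.57 around the array median, with the lowest medians in classes 15, 14 and 16, all within the last 24 numbers of the blocks. Classes 10 and 11 were low there too, at -0.44 and -0.72, and class 13, which also belongs to the last 24 numbers, stood at 0.14.

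**Figure D1:**
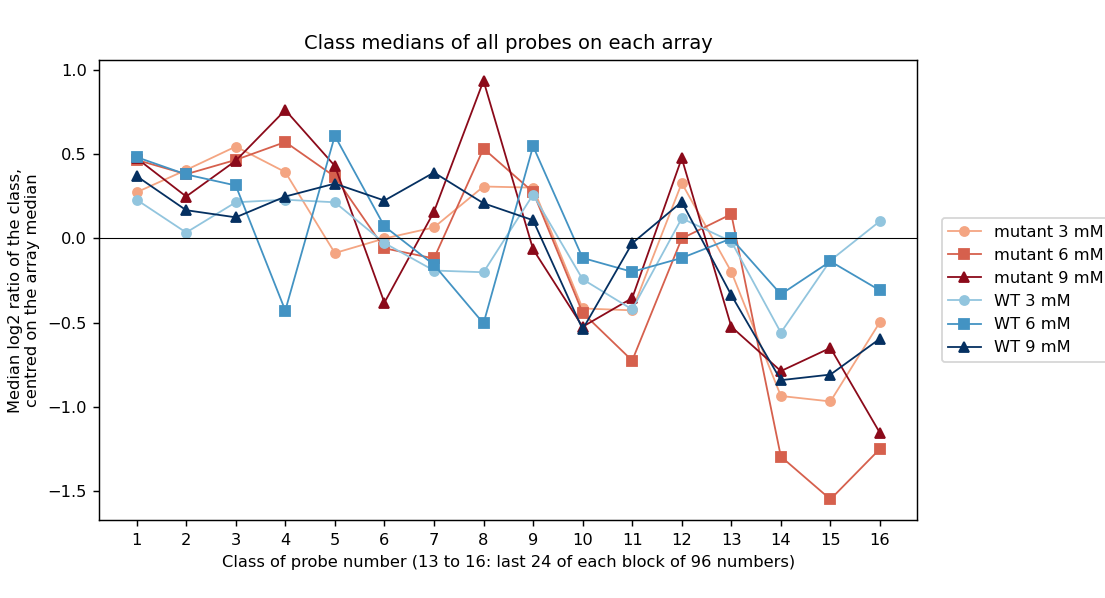
Median log2 ratio, centred on the array median, of all probes in each of 16 classes of probe number (x axis), with 1 line for each array, mutant arrays in red and WT arrays in blue. Classes 14 to 16 lie below 0 on all 3 mutant arrays, down to -1.55 at 6 mM.

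Of the 36 proteasome genes, 14 had a probe among the last 24 numbers of a block (classes 13 to 16), among them RPN4, UMP1, POC4, NAS6, SCL1 and RPN12. With arrays centred on their medians, these 14 genes had medians of -0.78, -1.63 and -0.87 at 3, 6 and 9 mM in the mutant, against 0.20, 0.00 and -1.0 in WT. The other 22 genes had medians of -0.04, 0.07 and 0.67 in the mutant and 0.38, 0.27 and 0.30 in WT. Centred on the median of their own class, the 14 genes had medians of -0.13, -0.33 and -0.02 in the mutant, against 0.32, 0.22 and -0.21 in WT. The medians of the 14 genes in the mutant thus lay nearer 0 within classes. Results below are given centred on the array median, and with each class centred on its own median. The second centring was chosen after the data were seen. It did not remove all dependence on probe number. Within classes, values still correlated with those of the probe 4 numbers on. The correlation r was 0.35, 0.29 and 0.21 on the mutant arrays at 3, 6 and 9 mM, against 0.17, 0.08 and 0.10 in WT.

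As a list, and with arrays centred, the proteasome genes were lower in the mutant than in WT at the lower doses and higher at the highest dose. In the first centring, the median of the list was -0.39, -0.55 and 0.11 in the mutant at 3, 6 and 9 mM, against 0.29, 0.13 and 0.05 in WT. Centred within classes it was -0.01, -0.09 and 0.30 in the mutant, against 0.34, 0.24 and 0.03 in WT. Both centrings gave the same order of the strains at each dose, while the mutant medians at 3 and 6 mM were close to 0 once classes were centred. In the values as deposited, without centring, the list median was lower in the mutant at 9 mM too. The order at 9 mM thus depends on the centring.

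Gene by gene, centred within classes, 27 of 35 genes had a lower ratio in the mutant than in WT at 3 mM, where 51.5% of all genes did. At 6 mM 25 of 35 were lower in the mutant, against 50.5% of all genes. At 9 mM the order turned, with 13 of 35 lower and 22 higher in the mutant, while 49.7% of all genes were lower. With arrays centred on their medians, 29, 26 and 15 of the 35 were lower in the mutant, against 52.2%, 56.2% and 47.9% of all genes. Each of these counts compares 1 array with 1 array and has no replicate check.

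The genes of the list stayed closer together than all genes did in WT. Centred within classes, their SD over genes was 0.45, 0.51 and 0.75 in the mutant at 3, 6 and 9 mM, beside 0.48, 0.62 and 0.78 over all genes on those arrays. In WT it was 0.47, 0.40 and 0.53, beside 0.76, 0.96 and 1.14 over all genes. At 9 mM in WT, where 16.8% of all genes stood at least 2-fold above their class median and 14.8% at least 2-fold below it, 1 of the 36 proteasome genes did so, RPN12, which was low. That count depends on the centring. With arrays centred on their medians, 2 stood at least 2-fold above and 8 at least 2-fold below at 9 mM in WT. The share of all genes is not given for that centring. The SD of the list in WT at 9 mM was then 0.83, beside 1.21 over all genes. In the mutant it was 1.05 and 1.15 at 6 and 9 mM, above the 0.91 and 0.99 over all genes.

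**Figure D2:**
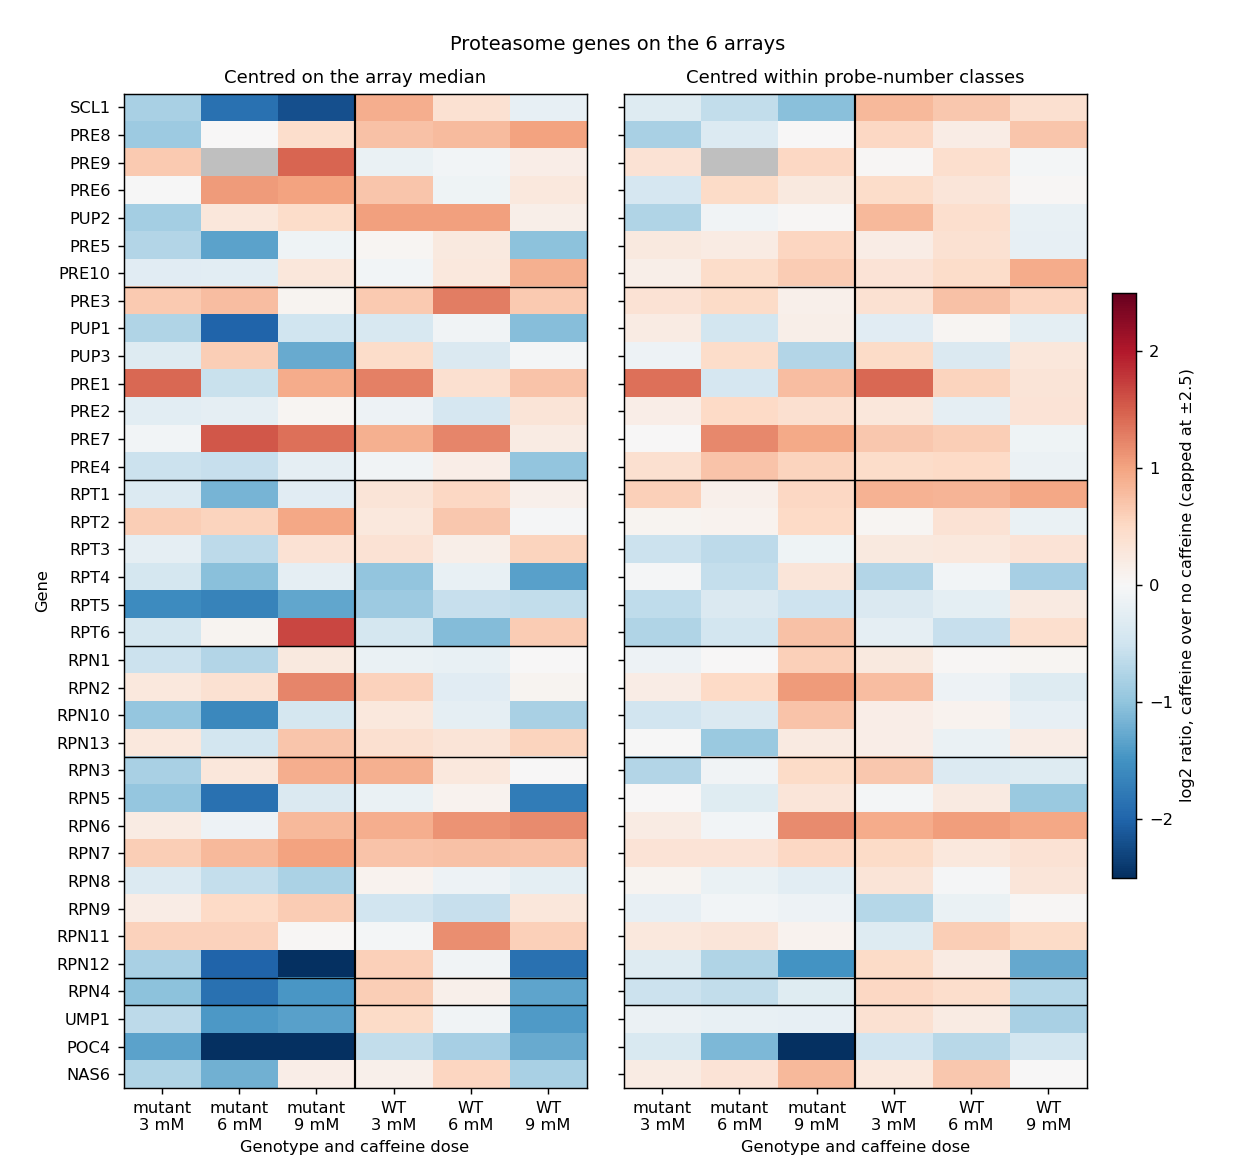
Log2 ratio, caffeine over no caffeine, of the 36 proteasome genes (rows, in the order alpha ring, beta ring, base ATPases, other base subunits, lid, RPN4, assembly factors) on the mutant and WT arrays (columns), centred on the array median at left and within probe-number classes at right. Grey marks the missing PRE9 value. POC4 stands at -3.30 and -2.65 in the mutant at 9 mM under the first and the second centring.

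The response to dose was tested as a slope in log2 ratio per mM caffeine for each strain, through 0 at 0 mM, with limma over the 5212 genes. Here rose and fell mean a slope past an adjusted p of 0.05. Because the line runs through 0, a gene with ratios offset from 0 can be called without a trend from the lowest to the highest dose. Nothing in the labels says that the doses came from separate cultures or from separate pools of untreated RNA, so the p-values rest on the scatter of these arrays around the fitted slope, and that scatter may be technical. Centred on the array median, 3 of 35 proteasome genes rose and 7 fell in the mutant, where 27.9% of all genes were called (12.1% rose and 15.8% fell). In WT 3 rose and 2 fell, where 33.5% of all genes were called (17.2% rose and 16.3% fell). The count in the mutant is close to the share of all genes called, and the count in WT lies below it. With a mean over doses in place of the slope, 10 were called in the mutant and 6 in WT. With an intercept shared by the strains, 0 were called in either. At an unadjusted p below 0.05 limma then gave 6 in the mutant and 4 in WT.

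Centred within classes, 0 of 35 rose and 2 fell in the mutant, where 10.3% of all genes were called (5.87% rose and 4.45% fell). At an unadjusted p below 0.05 in limma, 6 had a positive and 3 a negative slope there. In WT 3 rose and 0 fell, where 38.8% of all genes were called (20.3% rose and 18.5% fell), and at an unadjusted p below 0.05 the counts were 5 and 1. The median slope of the list was 0.01 in the mutant and 0.01 in WT under this centring, beside 0.00 over all genes in each strain. Individual genes of the list, described next, went both ways around that median.

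**Figure D3:**
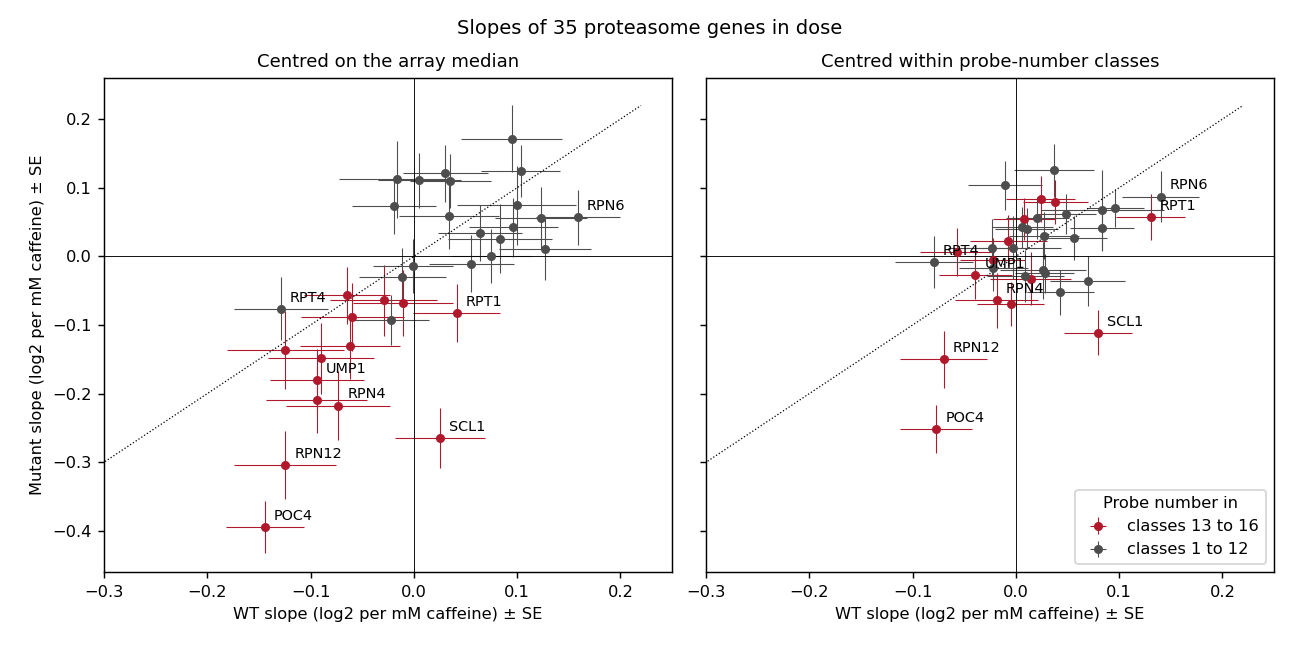
Mutant slope (y axis) against WT slope (x axis), both in log2 per mM caffeine with their limma SE, for the 35 fitted genes, centred on the array median at left and within probe-number classes at right. Red points have probes in classes 13 to 16, and the dotted line marks equal slopes. POC4 lies lowest in both panels, at -0.39 and -0.25 in the mutant.

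The 7 genes of the alpha ring, which forms the gate of the core particle, went different ways. Centred on the array median, PRE6 rose and SCL1 fell in the mutant, and PRE8 rose in WT, among the 6 fitted. SCL1 had log2 ratios of -0.81, -1.86 and -2.20 in the mutant at 3, 6 and 9 mM, against 0.91, 0.37 and -0.20 in WT. All 3 mutant values lay below all 3 WT values. The share of all genes that separate in this way is not given, here or for the genes below. Its slope was -0.26 ± 0.0435 (SE; limma adjusted p = 0.00145) in the mutant and 0.03 ± 0.0435 (adjusted p = 0.69) in WT. Centred within classes its ratios were -0.32, -0.61 and -1.05 in the mutant, against 0.81, 0.68 and 0.39 in WT, still without overlap. The mutant slope was then -0.11 ± 0.033 (limma adjusted p = 0.0553).

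PRE8, another alpha subunit, had ratios of -0.90, 0.02 and 0.43 in the mutant, against 0.73, 0.79 and 1.009 in WT. The WT values all lay above the mutant values, and the WT slope was 0.13 ± 0.044 (limma adjusted p = 0.0399). PRE6 had ratios of -0.02, 1.06 and 1.0 in the mutant and 0.69, -0.12 and 0.27 in WT, with a mutant slope of 0.12 ± 0.041 (limma adjusted p = 0.0428). Neither call held within classes, where the limma adjusted p was 0.155 for PRE8 in WT and 0.597 for PRE6 in the mutant. PRE5 had the lowest WT slope of the ring, -0.06 ± 0.0496 (limma adjusted p = 0.377), with ratios of -0.73, -1.34 and -0.11 in the mutant and 0.05, 0.25 and -1.02 in WT. Within classes all 3 mutant ratios of PRE5 turned above 0, at 0.24, 0.21 and 0.54, against 0.18, 0.39 and -0.21 in WT, and its WT slope was 0.01 (limma adjusted p = 0.86).

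PRE10 was the alpha subunit that rose in WT once classes were centred. Its ratios were then 0.15, 0.45 and 0.64 in the mutant and 0.35, 0.47 and 0.92 in WT, higher at each higher dose in both strains. The WT slope was 0.10 ± 0.027 (limma adjusted p = 0.0185) and the mutant slope 0.07 ± 0.027 (adjusted p = 0.118). PUP2 had ratios of -0.75, -0.09 and 0.03 in the mutant and 0.81, 0.42 and -0.18 in WT under the same centring, so that the strains converged with dose. PRE9, the alpha subunit that yeast can live without, had 0.66 and 1.45 at 3 and 9 mM in the mutant, against -0.17, -0.08 and 0.16 in WT, centred on the array median. In a fit that drops its missing array, over 5469 genes, the mutant slope was 0.17 ± 0.046 (limma adjusted p = 0.0181). Within classes its values were lower, at 0.35 and 0.52 in the mutant, against 0.03, 0.43 and -0.05 in WT, and its slope was not fitted there.

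The beta ring holds the protease sites, on Pre3, Pup1 and Pre2, beside 4 subunits without one. Centred on the array median, PRE7 rose and PUP1 fell in the mutant and PRE3 rose in WT, out of 7, and none of the 7 was called in either strain within classes. Without adjustment, at a limma p below 0.05, the second centring left 2 positive slopes in the mutant and 1 in WT. Within classes the median of the ring was nevertheless above 0 on each of the 6 arrays, at 0.21, 0.49 and 0.39 in the mutant and 0.47, 0.49 and 0.28 in WT. With arrays centred on their medians it was -0.26, -0.23 and 0.04 in the mutant and 0.45, 0.16 and 0.21 in WT. The sign in the mutant at 3 and 6 mM thus depends on the centring.

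PRE3, which carries the caspase-like site, had ratios of 0.66, 0.76 and 0.06 in the mutant, against 0.65, 1.28 and 0.65 in WT. All 6 lay above 0. The WT slope was 0.12 ± 0.045 (limma adjusted p = 0.0476), and 0.08 ± 0.031 within classes (adjusted p = 0.0544). PUP1, which carries the trypsin-like site, had ratios of -0.75, -2.00 and -0.49 in the mutant, against -0.41, -0.10 and -1.06 in WT, and its mutant slope was -0.15 ± 0.051 (limma adjusted p = 0.0455). Within classes the mutant ratios were 0.21, -0.45 and 0.16, on both sides of 0, and the slope was -0.01 ± 0.032 (limma adjusted p = 0.935). PRE2, with the chymotrypsin-like site, stayed within -0.26 and 0.04 in the mutant and within -0.43 and 0.32 in WT.

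PRE7, a beta subunit without a protease site, had ratios of -0.07, 1.56 and 1.38 in the mutant, against 0.89, 1.23 and 0.21 in WT. Its mutant slope was 0.17 ± 0.049 (limma adjusted p = 0.0209), and 0.13 ± 0.039 (adjusted p = 0.0636) within classes. The mutant was high at the upper doses and WT at the lower ones. PRE1 had 1.44, -0.55 and 0.92 in the mutant and 1.25, 0.40 and 0.71 in WT, the highest of the list at 3 mM in both strains, and was called in neither.

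Among the 6 ATPases of the base, RPT5 fell in the mutant and RPT4 fell in WT when arrays were centred on their medians. RPT5 had ratios of -1.57, -1.66 and -1.30 in the mutant, against -0.91, -0.59 and -0.62 in WT, all below 0 and all lower in the mutant. Its mutant slope was -0.21 ± 0.049 (limma adjusted p = 0.00862). Within classes the ratios were -0.63, -0.37 and -0.51 in the mutant, against -0.36, -0.25 and 0.22 in WT, and the slope was -0.07 ± 0.033 (limma adjusted p = 0.185). RPT4 had -0.45, -1.04 and -0.23 in the mutant, against -0.98, -0.18 and -1.36 in WT. The WT slope of RPT4 was -0.13 ± 0.046 (limma adjusted p = 0.0427), and within classes -0.08 ± 0.037 (adjusted p = 0.118).

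RPT1 was the ATPase that rose in WT once classes were centred, with ratios of 0.60, 0.13 and 0.51 in the mutant and 0.88, 0.85 and 0.97 in WT. The WT slope was 0.13 ± 0.033 (limma adjusted p = 0.0114), and all 3 WT values lay above all 3 mutant values. With arrays centred on their medians that WT slope was 0.04 (limma adjusted p = 0.478). RPT6 had the highest mutant slope of the ATPases when arrays were centred on their medians, 0.11 ± 0.056 (limma adjusted p = 0.141). Its ratios were -0.45, 0.07 and 1.67 in the mutant and -0.43, -1.08 and 0.63 in WT, with the highest value at 9 mM. Within classes the mutant ratios of RPT6 were -0.76, -0.46 and 0.74 and its slope was 0.01 ± 0.046 (limma adjusted p = 0.887). With arrays centred on their medians, RPT3 had the highest WT slope of the ATPases, 0.06 ± 0.041 (limma adjusted p = 0.316).

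The other 4 base subunits, the scaffolds and ubiquitin receptors, were called in neither strain under either centring. RPN2, a scaffold of the base, had ratios of 0.26, 0.38 and 1.21 in the mutant, against 0.58, -0.29 and 0.07 in WT, and a mutant slope of 0.11 ± 0.040 (limma adjusted p = 0.0534). RPN10, a ubiquitin receptor, had ratios of -0.97, -1.60 and -0.44 in the mutant, against 0.26, -0.22 and -0.81 in WT, with slopes of -0.13 ± 0.049 (limma adjusted p = 0.0586) in the mutant and -0.06 ± 0.049 (adjusted p = 0.345) in WT. Within classes its mutant ratios were -0.47, -0.36 and 0.72, so the direction at 9 mM turned. RPN13, another receptor, had the highest WT slope of these 4, 0.06 ± 0.041 (limma adjusted p = 0.247). Within classes all 4 genes lay above 0 at 9 mM in the mutant, with a median of 0.66, against -0.08 in WT. At unadjusted p below 0.05, limma gave 1 positive slope in the mutant and 0 in WT for these 4 genes within classes.

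Of the 8 lid genes, RPN7 rose and RPN12 fell in the mutant and RPN6 rose in WT, with arrays centred on their medians. RPN6, whose protein braces the lid against the core particle, had ratios of 0.20, -0.12 and 0.81 in the mutant, against 0.90, 1.12 and 1.18 in WT. Its WT slope was 0.16 ± 0.040 (limma adjusted p = 0.00834), and within classes 0.14 ± 0.038 (adjusted p = 0.0138). In the mutant it was 0.06 ± 0.040 (limma adjusted p = 0.294). RPN6 thus rose in WT under both centrings. The difference between the strains, -0.10 ± 0.057, did not pass the test (limma adjusted p = 0.319). The WT call held in 17 of 21 alternatives, with a limma adjusted p from 0.00648 to 0.417.

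RPN12, a lid subunit, had ratios of -0.81, -2.00 and -2.65 in the mutant, against 0.59, -0.10 and -1.87 in WT. Both strains ran lower at each higher dose. The slope was -0.30 ± 0.049 (limma adjusted p = 0.00136) in the mutant and -0.12 ± 0.049 (adjusted p = 0.0672) in WT. Within classes the ratios were -0.32, -0.75 and -1.49 in the mutant, against 0.49, 0.21 and -1.28 in WT, with a mutant slope of -0.15 ± 0.042 (limma adjusted p = 0.0473). When each probe was set against the 20 nearest probes of its class, the mutant slope of RPN12 was -0.10 and missed the threshold (limma adjusted p = 0.098). The probes of RPN12 and SCL1 are neighbours of 1 class, at numbers 2296 and 2292. On the mutant 9 mM array the 20 nearest probes of the class had a median of -1.52 for each, against -1.15 over the class.

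RPN7, another subunit of the lid, had ratios of 0.62, 0.81 and 1.0 in the mutant and 0.72, 0.74 and 0.72 in WT, all of them above 0. The slope was 0.12 ± 0.038 (limma adjusted p = 0.0292) in the mutant and 0.10 ± 0.038 (adjusted p = 0.0512) in WT. Within classes it was 0.06 ± 0.029 (limma adjusted p = 0.187) in the mutant and 0.05 ± 0.029 (adjusted p = 0.211) in WT. RPN11, the deubiquitinase of the lid, had ratios of 0.57, 0.57 and 0.02 in the mutant and -0.05, 1.17 and 0.59 in WT. RPN5 had -0.97, -1.86 and -0.35 in the mutant and -0.17, 0.09 and -1.74 in WT, and within classes 0.00, -0.31 and 0.30 in the mutant and -0.04, 0.23 and -0.94 in WT. Neither RPN11 nor RPN5 was called in a strain.

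RPN4, the activator of proteasome genes, had ratios of -1.03, -1.86 and -1.46 in the mutant, against 0.61, 0.12 and -1.31 in WT. It was low on all mutant arrays and in WT only on the 9 mM array. Its slope was -0.22 ± 0.050 (limma adjusted p = 0.00845) in the mutant and -0.07 ± 0.050 (adjusted p = 0.281) in WT. Its probe is in class 16, whose median stood at -0.50, -1.25 and -1.15 on the mutant arrays and 0.10, -0.31 and -0.59 on the WT arrays. Within the class, RPN4 had -0.54, -0.61 and -0.31 in the mutant, against 0.51, 0.43 and -0.72 in WT, and slopes of -0.06 ± 0.040 (limma adjusted p = 0.32) in the mutant and -0.02 ± 0.040 (adjusted p = 0.739) in WT. The fall in the mutant was thus called under the first centring only, while at 3 and 6 mM the ratio was lower in the mutant under both.

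**Figure D4:**
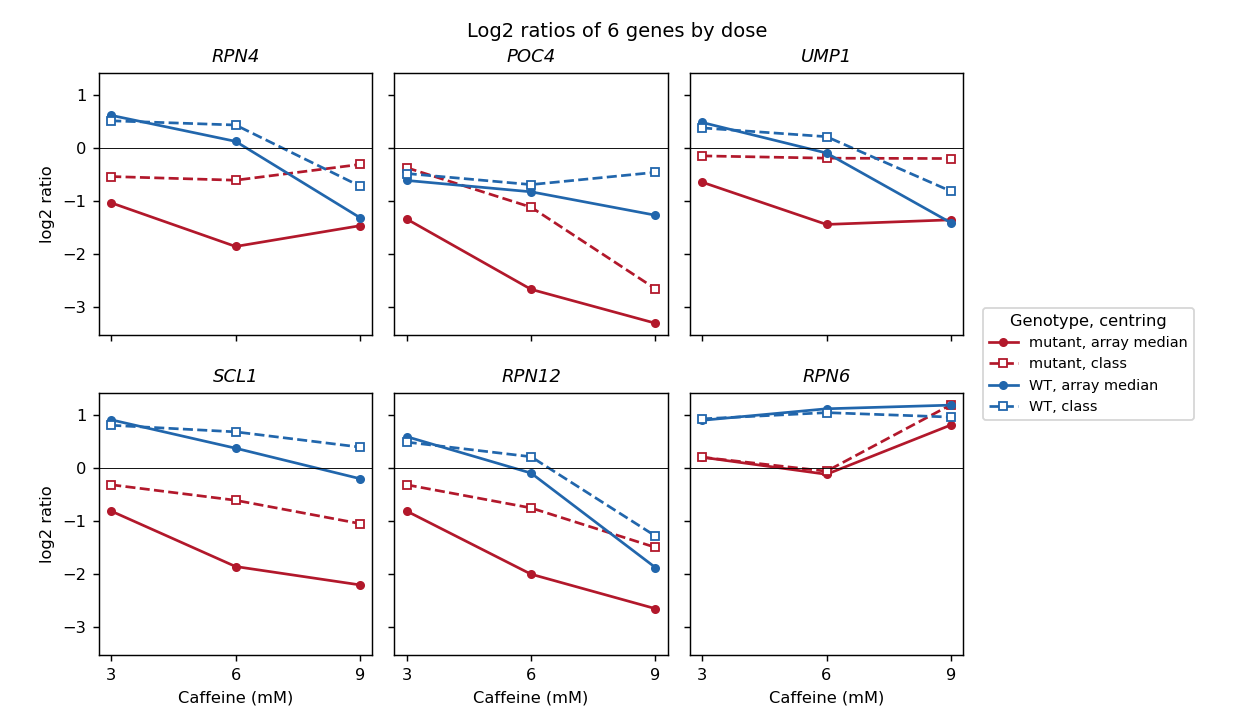
Log2 ratio, caffeine over no caffeine, against caffeine dose in mM for RPN4, POC4, UMP1, SCL1, RPN12 and RPN6, in the mutant (red) and WT (blue). Solid lines with filled points are centred on the array median and dashed lines with open squares within probe-number classes, and each point is 1 array. For UMP1 the mutant values within classes stay between -0.20 and -0.15, and for POC4 they run down to -2.65.

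Of the assembly factors, POC4 had the steepest slope of the whole list. Poc4 works as a chaperone in the building of the alpha ring. Its ratios were -1.34, -2.66 and -3.30 in the mutant, against -0.61, -0.83 and -1.27 in WT, lower at each higher dose in both strains and lowest in the mutant throughout. The slope was -0.39 ± 0.038 (limma adjusted p = 0.000111) in the mutant and -0.14 ± 0.038 (adjusted p = 0.00978) in WT. Within classes the ratios were -0.37, -1.12 and -2.65 in the mutant, against -0.48, -0.69 and -0.46 in WT.

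Under this centring POC4 fell in the mutant, at -0.25 ± 0.035 (limma adjusted p = 0.00461), and the WT slope of -0.08 ± 0.035 missed the threshold (adjusted p = 0.103). At 3 mM the mutant value was then no lower than that of WT. The mutant call held in 19 of 21 alternatives, and with classes centred it was lost without the mutant 9 mM array (limma adjusted p = 0.203).

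UMP1 encodes a factor that helps the core particle mature and is then degraded by it. Its ratios were -0.64, -1.44 and -1.35 in the mutant, against 0.48, -0.10 and -1.41 in WT, and its mutant slope was -0.18 ± 0.045 (limma adjusted p = 0.0121). Within classes the mutant ratios were -0.15, -0.19 and -0.20, against 0.38, 0.21 and -0.81 in WT, and the mutant slope was -0.03 ± 0.035 (limma adjusted p = 0.653). Set against the 20 nearest probes of the class it was 0.04, so its direction turned. NAS6, which encodes a chaperone of the base, had ratios of -0.75, -1.20 and 0.16 in the mutant and 0.14, 0.53 and -0.81 in WT, and was called in neither strain (limma adjusted p = 0.364 in the mutant and 0.698 in WT). Within classes the mutant ratios of NAS6 were 0.21, 0.34 and 0.81, so that those at 3 and 6 mM turned above 0, against 0.27, 0.67 and 0.00 in WT.

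The slope differed between the strains for 2 of the 35 genes when arrays were centred on their medians, both lower in the mutant, where 4.26% of all genes were called and 2.32% were lower. SCL1 differed by -0.29 ± 0.062 and POC4 by -0.25 ± 0.053 log2 per mM (limma adjusted p = 0.0249 for each). Within classes, where 4.39% of all genes were called and 2.07% were lower, SCL1 differed by -0.19 ± 0.047 (limma adjusted p = 0.0473) and POC4 by -0.17 ± 0.049 (adjusted p = 0.0736). When each probe was set against the 20 nearest of its class, 0 of the 35 differed, where 5.91% of all genes did, and 1 of 35 was called in the mutant, POC4, where 9.94% were. At an unadjusted p below 0.05 limma then gave 3 differences. When the strains were subtracted at each dose before the fit, a setting added after the data were seen, 0 of the 35 differed (SCL1 adjusted p = 0.0615, POC4 0.056), with 5 at an unadjusted p below 0.05 and 14 genes called in all. The remaining 33 genes, RPN4 and RPN12 among them, missed the threshold under the first centring. For RPN4 the difference was -0.14 ± 0.071 (limma adjusted p = 0.26), and for RPN12 it was -0.18 ± 0.070 (adjusted p = 0.158).

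Part of these counts changed when single arrays were left out, which also leaves fewer arrays to estimate the spread. Centred on the array median, the 10 calls in the mutant became 4 when its 6 mM array was left out. Calls over all genes in the mutant went from 1455 to 584 there. Leaving out its 9 mM array also gave 10, of which 0 rose. The 5 calls in WT became 3 without WT 3 mM, WT 6 mM, WT 9 mM or mutant 3 mM. The 2 differences became 0 without WT 6 mM, mutant 3 mM or mutant 6 mM, and at an unadjusted p below 0.05 limma then gave 2, 3 and 3.

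Genes around the proteasome that are not among the 36 were described from lists of other proteasome factors, ubiquitin and its enzymes, ubiquitin ligases, Cdc48 with its partners, and regulators of RPN4. Their counts are for arrays centred on their medians, where 12.1% of all genes rose and 15.8% fell in the mutant and 17.2% rose and 16.3% fell in WT. Within classes 5.87% of all genes rose and 4.45% fell in the mutant, and 20.3% rose and 18.5% fell in WT. Of 15 fitted other proteasome factors, 1 rose and 2 fell in the mutant (within classes 1, TMA17, and 0), and 2 rose and 1 fell in WT (2 and 1). CIC1, an adaptor of the proteasome that also works in ribosome assembly, had ratios of -0.18, 0.20 and -0.38 in the mutant, against -1.34, -1.16 and -2.36 in WT. It fell in WT, at -0.26 (limma adjusted p = 0.000439), and its slope was higher in the mutant by 0.23 (adjusted p = 0.0415, and 0.0306 within classes). SPG5, a regulator of the proteasome in resting cells, rose in both, at 0.20 (limma adjusted p = 0.00569) in the mutant and 0.13 (adjusted p = 0.0321) in WT. Within classes the mutant slope of SPG5 missed the threshold (limma adjusted p = 0.0729).

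HUL5, a ubiquitin ligase bound to the proteasome, and PBA1, a chaperone of the alpha ring, fell in the mutant under the first centring. Their slopes were -0.20 (limma adjusted p = 0.0114) and -0.20 (adjusted p = 0.0183), and within classes -0.05 (adjusted p = 0.284) and -0.06 (adjusted p = 0.295). IRC25, whose protein pairs with Poc4, rose in WT, at 0.12 (limma adjusted p = 0.0378, and 0.0578 within classes). In the mutant IRC25 had ratios of 0.56, 0.00 and -0.44, against 0.73, 0.85 and 0.86 in WT, and thus did not share the direction of POC4 in WT.

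Of 15 fitted genes for ubiquitin, its activation and its recycling, 2 rose and 5 fell in the mutant (2 and 2 within classes) and 3 rose and 4 fell in WT (4 and 4). RPL40A, RPL40B and RPS31, which encode ubiquitin fused to a ribosomal protein, fell in both strains. RPL40B had ratios of -0.59, -1.86 and -1.94 in the mutant, against -1.21, -2.29 and -3.27 in WT, with slopes of -0.24 (limma adjusted p = 0.00113) in the mutant and -0.37 (adjusted p = 2.04e-05) in WT. Within classes RPS31 missed the threshold in the mutant (limma adjusted p = 0.111). UBI4, the stress-induced gene of ubiquitin repeats, went the other way in WT, at 0.16 (limma adjusted p = 0.0128). Its ratios were 0.30, 0.35 and 0.82 in the mutant, against 1.17, 1.39 and 0.89 in WT. The WT ratios were positive at each dose and lowest at the highest dose.

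UBC1, a ubiquitin-conjugating enzyme, fell in the mutant at -0.28 (limma adjusted p = 0.00205) and in WT at -0.22 (adjusted p = 0.0037). Within classes the mutant slope of UBC1 missed the threshold (limma adjusted p = 0.0848). CDC34, the conjugating enzyme of the cell cycle, rose in the mutant, at 0.26 (limma adjusted p = 0.00197, and 0.0232 within classes), with ratios of 0.41, 0.72 and 3.08, against 0.12, 0.22 and 0.24 in WT. The mutant value at 9 mM stood far above the other 5. DOA4, a deubiquitinase that recovers ubiquitin, rose in WT, at 0.19 (limma adjusted p = 0.00309).

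Of 14 ligase genes, 0 rose and 2 fell in the mutant, and 3 rose and 2 fell in WT, with arrays centred on their medians. Over all genes 12.1% rose and 15.8% fell in the mutant, and 17.2% rose and 16.3% fell in WT. Within classes 0 were called in the mutant, and 2 rose and 2 fell in WT. At an unadjusted p below 0.05, limma gave 2 positive and 3 negative slopes in the mutant, and 0 of either within classes. UBR1, the ligase of the N-end rule, and MUB1, a partner of the ligase that targets Rpn4, fell in the mutant at -0.17 (limma adjusted p = 0.013) and -0.13 (adjusted p = 0.041), and missed the threshold within classes (adjusted p = 0.637 and 0.253). HUL4, a ligase, and MET30, which encodes the F-box protein of sulphur metabolism, rose in WT at 0.21 (limma adjusted p = 0.000877) and 0.20 (adjusted p = 0.00358). SAN1, a ligase for misfolded nuclear proteins, fell in WT at -0.17 (limma adjusted p = 0.00857).

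CDC48, whose ATPase extracts tagged proteins and hands them to the proteasome, had a called positive slope in both strains. Its ratios were 1.13, 0.80 and 0.95 in the mutant, against 0.44, 2.05 and 2.11 in WT. These mutant ratios were positive at each dose but no higher at the highest dose than at the lowest. The slopes were 0.13 (limma adjusted p = 0.0369, and 0.0275 within classes) in the mutant and 0.26 (adjusted p = 0.000632, and 0.000401 within classes) in WT. NPL4, a cofactor of Cdc48, rose in WT at 0.12 (limma adjusted p = 0.039), and CUE1, which anchors a conjugating enzyme at the endoplasmic reticulum, fell in the mutant at -0.13 (adjusted p = 0.0246, and 0.0762 within classes). Among these 10 genes 1 rose and 1 fell in the mutant (1 and 0 within classes) and 2 rose and 0 fell in WT (2 and 0), and at an unadjusted p below 0.05 limma gave 3 positive and 0 negative slopes in WT.

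Of 4 genes for regulators of RPN4 transcription, PDR1 and YAP1 fell in the mutant and PDR3 rose in WT under the first centring. PDR3 had ratios of 0.75, 0.45 and 0.65 in the mutant and 0.96, 1.05 and 1.26 in WT, above 0 on all arrays, with a WT slope of 0.16 (limma adjusted p = 0.00722, and 0.014 within classes). PDR1 had -1.22, -1.49 and -1.20 in the mutant, against 0.41, -0.58 and -0.04 in WT. The mutant slopes of PDR1 and YAP1, -0.19 (limma adjusted p = 0.0103) and -0.20 (adjusted p = 0.0032), were -0.03 and -0.04 within classes (adjusted p = 0.599 and 0.406).

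The strain background is of mating type a. With arrays centred on their medians, of 7 a-specific genes 1 rose in the mutant (AGA2) and 3 in WT, and of 5 alpha-specific genes 1 rose in the mutant (AFB1) and 3 in WT, where 12.1% of all genes rose in the mutant and 17.2% in WT. Within classes both mutant calls were lost (limma adjusted p = 0.451 for AGA2 and 0.0685 for AFB1), with 1 positive slope in each set at an unadjusted p below 0.05, and 3 of each set rose in WT. STE2, the receptor of a cells, rose in WT at 0.29 (limma adjusted p = 0.000879), and STE3, the receptor of alpha cells, rose in WT at 0.22 (adjusted p = 0.00114). Ratios give no level of either set, and whether these changes play a part in the values of the proteasome genes was not tested.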

How the data were processed

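Two-channel arrays of 3 mutant and 3 WT samples, 1 per dose, were used. The deposited values are log2 ratios made by the authors. Background correction, spot filters and normalization are not given in the sources used here. Of 6214 probes, 5596 had 1 gene symbol in the platform annotation, 0 had several and 618 were unnamed, giving 5561 genes after spots of a gene were averaged. Deposited array medians over named genes were -0.22, -0.40 and -0.54 in the mutant and -0.30, -0.36 and -0.38 in WT at 3, 6 and 9 mM, and each array was centred on its own.

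Slopes in dose through 0 were fitted per strain with limma 3.58.1 (lmFit, eBayes) in R 4.3.3, over 5212 genes with values on all 6 arrays, with 4 residual and 9.69 prior degrees of freedom and Benjamini-Hochberg adjustment over all genes. Adjusted p-values below 0.05 are calls. The fit was tested on simulated data with independent noise for each gene and array and no effect of probe number. That test cannot say how often calls are false where values move with probe number, as here. Class and neighbour centring, and subtraction of the strains at matched dose, were added after the data were seen.

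The members and gene lists were chosen with earlier results of these data known. Genes were named by rule: RPN4 and the assembly factors, the highest and lowest slope of each structural group in each strain, members with a called difference, and up to 3 called genes per other list and strain. PRE1, PRE2, PRE9, PRE10, PUP2, RPT1, RPN5, RPN11, UBI4 and DOA4 fall outside this rule and were chosen after their values were seen. SEM1 and UFD3 were not matched and are not analysed here. No column was left unmapped.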

Additional observations from a re-analysis of the deposited data

Results flagged for a closer look

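The slope of SCL1, an alpha-ring subunit, was lower in the mutant than in WT by 0.29 log2 per mM (-0.29, limma adjusted p = 0.0249), by a test of the difference itself. That of POC4, an alpha-ring chaperone, was lower by 0.25 log2 per mM (-0.2501, limma adjusted p = 0.0249). The call held for SCL1 in 11 of 21 alternatives and for POC4 in 5 of 21, with limma adjusted p-values from 0.0176 to 0.331 and from 0.0247 to 0.446. Both probes lie among the last 24 numbers of their blocks, in classes 16 and 15.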

How the results depend on the processing

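Of 357 values of called proteasome genes under the alternatives, 177 kept their call, 177 lost it in the same direction and 3 turned. The cause was not tested. The 3 were PRE3 in WT with a shared intercept (-0.0164), and in the mutant PUP1 centred within classes without the 6 mM array (0.0226) and UMP1 centred on the 20 nearest of the class (0.0444). Calls in the mutant, 10 as reported, numbered 0 with a shared intercept (22 genes in all against 1455), 2 within classes (538 genes) and 1 with nearest probes (518 genes). As deposited there were 15, of which 0 rose. Calls in WT, 5 as reported, numbered 9 as deposited (1 rose and 8 fell), 1 after quantile normalization (0 rose, 980 genes against 1748), 0 with a shared intercept (144 genes) and 3 within classes (0 fell). Differences, 2 as reported, numbered 0 after quantile normalization (0 of 5212 genes), 1 as a mean over doses, 1 with ratios floored at 0.10, 1 within classes, 0 with nearest probes (308 genes) and 0 with the strains subtracted at matched dose (14 genes). Where 0 members were called, limma gave 6 (mutant, shared intercept), 4 (WT, shared intercept), 3 (difference, quantile), 3 (difference, nearest probes) and 5 (difference, matched dose) at an unadjusted p below 0.05. Leaving out each array in turn gave 4 to 11 calls in the mutant, 3 to 6 in WT and 0 to 2 differences, and within classes 0 to 5, 2 to 3 and 0 to 1. As deposited, list medians were -0.61, -0.94 and -0.43 in the mutant and -0.0148, -0.23 and -0.33 in WT at 3, 6 and 9 mM, and 32 of 36 medians of structural groups lay below 0, against 17 when centred. Within classes list medians were -0.007, -0.0911 and 0.30 in the mutant and 0.24 in WT at 6 mM, and with nearest probes -0.0159, -0.0365 and 0.36 in the mutant.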
